A study of Homo sapiens with 6 samples.

Results

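The genes described here are regulators and targets of the transcription factor NRF2, together with genes of the glutathione, thioredoxin and NADPH supply systems, in A549 cells after transfection of siRNAs against MYEOV. Members were chosen by name, as rows of the deposited array table whose platform annotation gives any of 37 listed symbols. The annotation gave a row to 20 of the 37, out of 14884 named genes in the whole table, and each of the 20 had a single row. The other 17 were not analysed here: BACH1, GCLC, GCLM, SLC7A11, SOD1, ME1, NQO1, AKR1B10, AKR1C1, AKR1C2, AKR1C3, ALDH3A1, EPHX1, ABCC2, ABCC3, FTL and FTH1. The listed members that act on quinones, carbonyls or aldehydes (NQO1, the AKR genes and ALDH3A1) are among the best known NRF2 outputs. They are therefore missing from what follows.

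A549 is an established human lung adenocarcinoma cell line, known to carry a mutation that disables KEAP1. The 3 groups are cells given MYEOV siRNA 1 (siMYEOV #1), cells given MYEOV siRNA 2 (siMYEOV #2) and cells given a control siRNA (siNC), with 2 arrays each, and all cells were grown in DMEM with serum and transfected with a lipid reagent. Total RNA was taken 48 hours after transfection and hybridised, as labelled cDNA, to Affymetrix whole-transcript arrays. Neither the siRNA sequences nor the target of the control siRNA is stated in the labels. It is also not stated that the arrays of a group came from separate transfections, so p-values here measure array-to-array spread that could be technical alone. RNA came from whole cultures of a single line, so a transcript carried by fewer cells and less of it per cell cannot be told apart.

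NRF2, the protein of NFE2L2, switches on genes whose control regions hold an antioxidant response element, to which it binds as a pair with a small MAF protein such as MAFG. KEAP1 captures NRF2 and hands it to a ubiquitin ligase, so that cells with working KEAP1 hold little NRF2 until oxidants or electrophiles disarm KEAP1. Cells without working KEAP1, A549 among them, keep NRF2 and run its programme without added stress: they make and recycle glutathione and thioredoxin, produce NADPH to power both, and break down heme and store the iron set free.

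The core of the antioxidant response element was searched for as TGACNNNGC, on both strands, in RefSeq promoter windows of build GRCh38.p14 that run from 250 bases before a transcription start to 50 bases after it. Of 35116 windows of this length for all genes, 4687 (13.3%) held it. Of 20 windows belonging to 15 of the measured members, 5 (25.0%) did. Counted by gene, 4 of these 15 (26.7%) held it, against 16.1% of all genes. A count this small is not a result about the members as a group. The windows with a match belonged to KEAP1, TXNRD1, GPX2 and PGD among measured members. Those of NFE2L2, CAT and UGDH, which are members that passed a test below, had none, which says only that these letters are absent from these windows. HMOX1 and GSR, which also passed a test, were not searched here. The matches are shown with their surroundings because NRF2 is known to act through the antioxidant response element. The core is in capitals and everything else in lower case. Whether NRF2 binds or acts through any stretch shown was not tested. GCLM, the regulatory subunit of the enzyme that starts glutathione synthesis, is added as a listed member without an array row. No match shown overlaps the AP-1 motif TGANTCA, a related element that shares part of these letters. ME1 and EPHX1, also listed members without an array row, held matches not shown, and a match of ME1 overlaps that motif.
TXNRD1, first start, whole window, chr12:104215529-104215828, plus strand: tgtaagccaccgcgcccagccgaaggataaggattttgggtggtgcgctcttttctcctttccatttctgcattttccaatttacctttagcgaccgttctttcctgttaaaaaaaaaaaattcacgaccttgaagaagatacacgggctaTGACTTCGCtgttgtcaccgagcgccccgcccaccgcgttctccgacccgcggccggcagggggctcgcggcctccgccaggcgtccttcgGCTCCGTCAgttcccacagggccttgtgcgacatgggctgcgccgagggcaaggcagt
TXNRD1, second start, chr12:104286910-104286958, plus strand: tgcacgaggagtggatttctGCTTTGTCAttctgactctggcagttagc
KEAP1, first match, chr19:10502797-10502845, minus strand: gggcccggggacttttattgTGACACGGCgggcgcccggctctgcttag
KEAP1, second match, chr19:10502774-10502822, minus strand: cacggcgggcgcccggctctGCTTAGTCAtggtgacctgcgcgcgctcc
GCLM, chr1:93909436-93909484, minus strand: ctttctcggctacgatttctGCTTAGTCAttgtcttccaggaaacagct
GPX2, chr14:64942839-64942887, minus strand: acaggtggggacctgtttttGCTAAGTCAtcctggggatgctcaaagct
PGD, chr1:10398843-10398891, plus strand: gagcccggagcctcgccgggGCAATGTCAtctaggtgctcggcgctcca

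The matches begin at different distances from their starts. In the first TXNRD1 window they begin 99 and 8 bases before the start, in the second TXNRD1 window 102 bases before it, in the KEAP1 window 54 and 31 bases before it, and in those of GCLM, GPX2 and PGD 34, 122 and 201 bases before it. The GCLM match and the second KEAP1 match are the same 9 letters, GCTTAGTCA on the printed strand. Another KEAP1 window, at a different start, held no match.

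Values are log2 RMA signals, a normalised brightness on which a difference of 1 is a doubling. The array medians lay between 4.08 and 4.10, and a gene was tested when its mean over the 6 arrays reached 5.45, the median of all named genes. This left 7442 genes and 19 of the 20 members, GSTM3 being too dim. MYEOV, the targeted gene, had 5.34 and 5.19 with siRNA 1 and 5.23 and 4.70 with siRNA 2, against 6.20 and 6.50 with the control siRNA. All 4 siRNA arrays were below both control arrays: MYEOV fell by 1.09 with siRNA 1 (limma adjusted p = 0.0215) and fell by 1.39 with siRNA 2 (adjusted p = 0.00516). The siRNA 1 call was lost without siRNA 1 replicate 1 or 2 (limma adjusted p = 0.0880 and 0.146), without control replicate 1 or 2 (0.0671 and 0.112), with no filter on dim genes (0.136) and with every row tested (0.0776), and its lowest value was 0.00826. MYEOV reached the filter only through the control arrays, with means of 5.27 and 4.96 with siRNA 1 and siRNA 2 and 6.35 with the control, so its test serves only as a check of the labels. It did not differ detectably between the siRNAs, at 0.30 for siRNA 1 minus siRNA 2 (95% confidence interval -0.12 to 0.72, limma adjusted p = 0.370).

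The labelled cell type was checked with markers. The epithelial keratin KRT18 lay between 11.79 and 12.09 on all arrays, KRT8 averaged 6.78 over the 6 arrays and EPCAM lay between 6.92 and 7.27, while KRT19 lay between 5.30 and 5.75. A second KRT18 row lay between 7.73 and 7.88, and its difference from control with siRNA 2 was -0.053, against -0.21 for the brighter row used. The alveolar type 2 genes SFTPA1, SFTPB, SFTPC and NKX2-1, the monocyte gene CD14, the endothelial genes PECAM1 and VWF and the fibroblast gene DCN all stayed under the filter in their means. KRT8, KRT18 and KRT19 had log2 fold changes of -0.34, -0.21 and -0.25 with siRNA 2, and EPCAM had 0.20 and 0.23 with siRNA 1 and siRNA 2. None of these 4 passed the test in any comparison, and their part in the results below was not tested.

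In control cells the 19 tested members had mean signals between 6.59 for OSGIN1 and 12.30 for TXN, and GSTM3 had 4.39. Signals of different genes come from different probes and are not set against each other. The arrays of a group lay close together for the members: the median gap was 0.049 with siRNA 1, 0.064 with siRNA 2 and 0.090 with the control siRNA. The widest gaps were those of GPX4 with siRNA 1 (0.21), TXNRD1 with siRNA 2 (0.26) and MAFG with the control (0.45).

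The heme oxygenase gene HMOX1 moved most, and it moved in opposite directions: it fell with siRNA 1 and rose with siRNA 2. Catalase, CAT, rose with siRNA 2 and UDP-glucose dehydrogenase, UGDH, fell with it. No other member passed the test against the control. With siRNA 1, limma with Benjamini-Hochberg adjustment over all genes called 0 of the 19 members higher and 1 lower, where 4.66% of all tested genes were called, 2.28% higher and 2.38% lower. With siRNA 2 it called 2 higher and 1 lower, where 6.83% of all tested genes were called, 2.59% higher and 4.23% lower. The siRNA 1 share is near the background, and with counts this small neither is a result about the members as a group. At an unadjusted p under 0.05 there were 5 of 19 members with each siRNA, against 19.2% and 22.2% of all tested genes. The 2 comparisons share their control arrays.

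**Figure D1:**
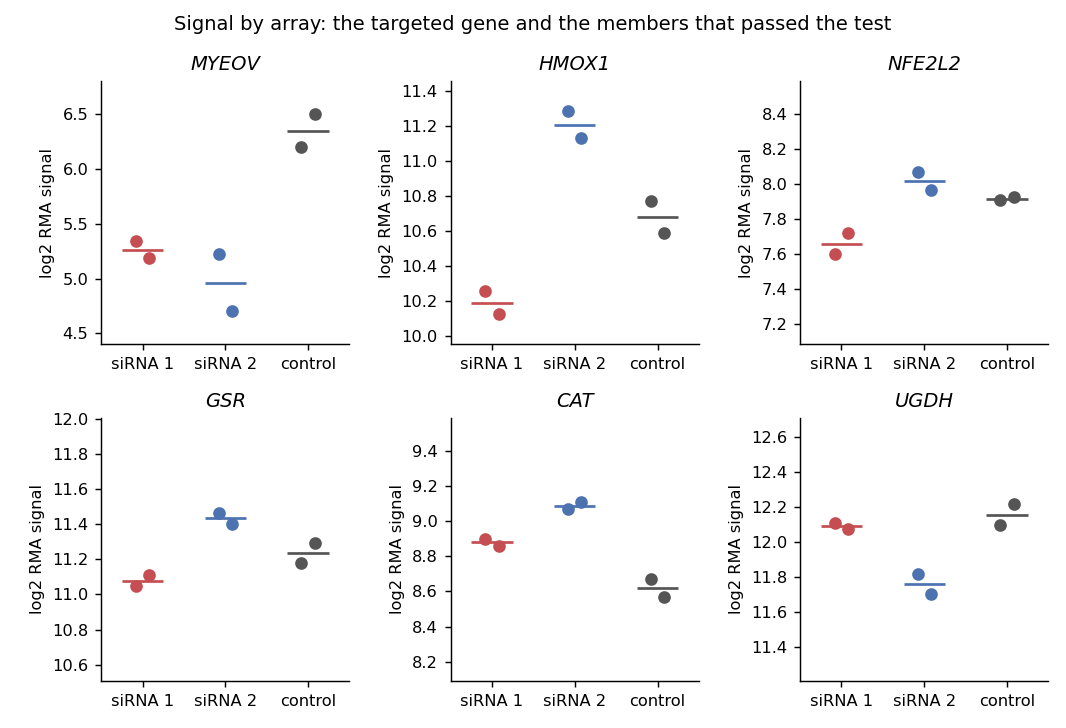
Log2 RMA signal (vertical axes, each panel with its own range) of MYEOV and of the 5 members that passed a test, for cells given MYEOV siRNA 1, MYEOV siRNA 2 and the control siRNA; points are the 2 arrays of a group and lines their mean. HMOX1 averaged 10.19 with siRNA 1 and 11.21 with siRNA 2, below and above the control mean of 10.68.

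Among the regulators, no gene passed the test against the control. NFE2L2, which encodes NRF2 itself, had 7.60 and 7.72 with siRNA 1 and 8.07 and 7.97 with siRNA 2, against 7.91 and 7.93 with the control siRNA. Both siRNA 1 arrays were below and both siRNA 2 arrays above the control arrays, which differed by under 0.02 from each other. The log2 fold change was -0.26 ± 0.08 (SE, 95% confidence interval -0.44 to -0.077, limma adjusted p = 0.119) with siRNA 1 and 0.10 ± 0.08 (interval -0.078 to 0.28, adjusted p = 0.501) with siRNA 2. KEAP1, the sensor that removes NRF2, had 8.70 and 8.62 with siRNA 1 and 8.94 and 8.77 with siRNA 2, against 8.64 and 8.73 with the control. With siRNA 1 the arrays overlapped those of the control and with siRNA 2 they lay above, with log2 fold changes of -0.027 and 0.17 (limma adjusted p = 0.899 and 0.320). MAFG, the small MAF partner, had log2 fold changes of -0.014 and -0.030 with siRNA 1 and siRNA 2, and its arrays overlapped those of the control. The spread of its control arrays made the intervals wide, -0.35 to 0.32 and -0.37 to 0.31.

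Of the glutathione genes, GSR and GSS were measured and neither passed the test against the control. GSR, glutathione reductase, which returns oxidised glutathione to its reduced form at the cost of NADPH, had 11.05 and 11.11 with siRNA 1 and 11.47 and 11.40 with siRNA 2, against 11.18 and 11.30 with the control siRNA. Both groups lay outside the control arrays, siRNA 1 below and siRNA 2 above. The log2 fold changes were -0.16 ± 0.07 and 0.20 ± 0.07 (SE, limma adjusted p = 0.305 and 0.180). GSS, glutathione synthetase, which adds glycine in the last step of synthesis, had log2 fold changes of 0.13 and 0.025 (limma adjusted p = 0.354 and 0.875). Its siRNA 1 arrays, at 8.93 and 8.90, lay above the control arrays, at 8.81 and 8.76.

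The thioredoxin and peroxiredoxin genes had 0 of 5 members called with either siRNA. SRXN1 with siRNA 1 was called under 3 alternatives: the replicate number added as a block, a 75th percentile filter, and a trend and robust prior. Of all tested genes, 4.66% and 6.83% were called with siRNA 1 and siRNA 2. Under those alternatives, in that order, 420 of 7442, 425 of 3721 and 501 of 7442 genes were called with siRNA 1. SRXN1, sulfiredoxin, which repairs peroxiredoxins inactivated by excess peroxide, came nearest: it had 10.23 and 10.18 with siRNA 1 and 10.46 and 10.44 with siRNA 2, against 10.52 and 10.48 with the control. Both siRNA groups lay below the control arrays, siRNA 1 the lower, and the log2 fold change was -0.30 ± 0.07 (SE, interval -0.45 to -0.14, limma adjusted p = 0.0554, and 0.0488 with the replicate block). With siRNA 2 it was -0.050 (interval -0.21 to 0.10, limma adjusted p = 0.727). Over all alternatives the siRNA 1 value ran from -0.32 to -0.27, and its lowest limma adjusted p was 0.00846. TXNRD1, the thioredoxin reductase whose promoter is printed above, had 8.86 and 8.82 with siRNA 1 and 9.14 and 8.88 with siRNA 2, against 9.06 and 9.05 with the control. Its siRNA 1 arrays lay below the control and its siRNA 2 arrays on both sides of it, with log2 fold changes of -0.22 and -0.045 (limma adjusted p = 0.271 and 0.837). TXN, thioredoxin, the small protein that TXNRD1 reduces, had 12.11 and 12.16 with siRNA 1 and 12.31 and 12.32 with siRNA 2, against 12.22 and 12.37 with the control, and log2 fold changes of -0.16 and 0.016 (limma adjusted p = 0.306 and 0.932). PRDX1 and PRDX6, peroxiredoxins that remove hydrogen and lipid peroxides, had arrays that overlapped those of the control with both siRNAs, and their log2 fold changes lay between -0.056 and 0.051.

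Of the 3 peroxide-removing enzymes, 1 was called higher with siRNA 2 and 0 with siRNA 1, where 2.59% and 2.28% of all tested genes were. With 3 genes, such a count is not a result about the group. CAT, catalase, which splits hydrogen peroxide without NADPH, had 8.90 and 8.86 with siRNA 1 and 9.07 and 9.11 with siRNA 2, against 8.67 and 8.57 with the control siRNA. All 4 siRNA arrays lay above both control arrays. It rose by 0.47 ± 0.07 with siRNA 2 (SE, interval 0.30 to 0.64, limma adjusted p = 0.0109), a signal 38.4% above control, and had a log2 fold change of 0.26 ± 0.07 with siRNA 1 (interval 0.094 to 0.43, limma adjusted p = 0.0970). The call with siRNA 2 was lost without siRNA 2 replicate 1 or 2 (limma adjusted p = 0.0552 and 0.0722), without control replicate 2 (0.0632) and with no filter on dim genes (0.100), and over all alternatives the limma adjusted p ran from 0.00164 to 0.100. GPX2, the epithelial glutathione peroxidase, had 9.04 and 9.23 with siRNA 1 and 9.41 and 9.44 with siRNA 2, against 9.16 and 9.09 with the control. The siRNA 2 arrays lay above all others, and its log2 fold changes were 0.013 with siRNA 1 and 0.30 ± 0.08 with siRNA 2 (SE, interval 0.11 to 0.50, limma adjusted p = 0.952 and 0.0816). GPX4, the peroxidase that protects membrane lipids, had overlapping arrays and log2 fold changes of -0.051 and 0.033 (limma adjusted p = 0.805 and 0.873).

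The NADPH supply genes had 0 of 3 members called with either siRNA, where 4.66% and 6.83% of all tested genes were called. TALDO1, transaldolase of the pentose phosphate pathway, had 7.32 and 7.25 with siRNA 1 and 7.33 and 7.51 with siRNA 2, against 7.49 and 7.54 with the control. Arrays of siRNA 1 were below the control arrays, and the log2 fold changes were -0.22 and -0.092 (limma adjusted p = 0.192 and 0.584). TKT, transketolase of the same pathway, had log2 fold changes of -0.0092 and 0.15 (limma adjusted p = 0.958 and 0.251). PGD, which makes NADPH from 6-phosphogluconate, had -0.057 and -0.064 with siRNA 1 and siRNA 2, with 95% confidence intervals of -0.21 to 0.098 and -0.22 to 0.090. Its arrays were below the control arrays with both siRNAs, by less than those intervals can resolve.

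**Figure D2:**
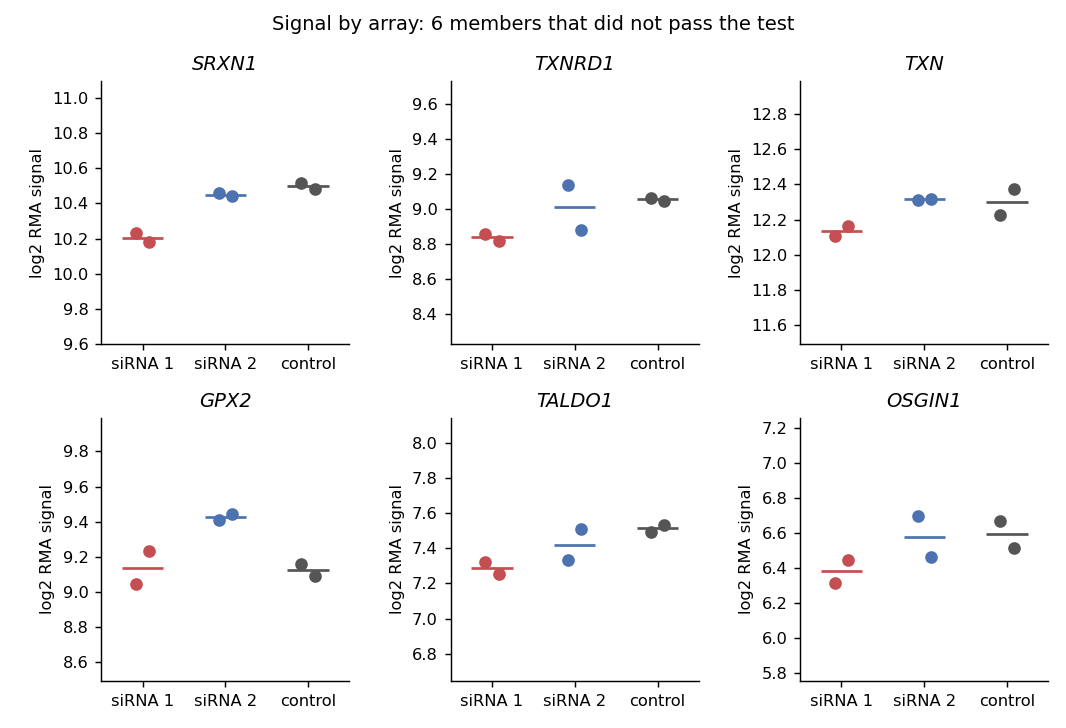
Log2 RMA signal (vertical axes, each panel spanning the same width) of 6 members that did not pass the test, for MYEOV siRNA 1, MYEOV siRNA 2 and the control siRNA; points are the 2 arrays of a group and lines their mean. The siRNA 1 arrays of SRXN1, at 10.23 and 10.18, lie below the other 4, while the siRNA 2 arrays of GPX2, at 9.41 and 9.44, lie above the other 4.

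UGDH, which makes the UDP-glucuronic acid used to conjugate foreign and endogenous compounds, had 12.11 and 12.07 with siRNA 1 and 11.82 and 11.70 with siRNA 2, against 12.10 and 12.21 with the control siRNA. The siRNA 2 arrays were below all others, and siRNA 1 overlapped the control. It fell by 0.40 ± 0.08 with siRNA 2 (SE, interval -0.58 to -0.21, limma adjusted p = 0.0307) and had -0.066 with siRNA 1 (interval -0.25 to 0.12, limma adjusted p = 0.710). The call was lost without each of the 6 arrays in turn (limma adjusted p between 0.0634 and 0.161), with no filter (0.184), with every row tested (0.0841) and with only the arrays of the groups compared (0.0634), while the lowest value over all alternatives was 0.00243. GSTM3, a glutathione S-transferase, was not tested because of its dim signal, and had 4.22 and 4.35 with siRNA 1 and 4.02 and 4.06 with siRNA 2, against 4.32 and 4.46 with the control. Its siRNA 2 arrays lay below the others, and signals this near background understate differences.

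HMOX1, heme oxygenase, opens the heme ring and sets free iron, carbon monoxide and biliverdin, and BACH1 is known to repress it where NRF2 activates it. It had 10.26 and 10.13 with siRNA 1 and 11.29 and 11.13 with siRNA 2, against 10.77 and 10.59 with the control siRNA. The 3 groups did not overlap anywhere: siRNA 1 was lowest, control in the middle and siRNA 2 highest. It fell by 0.49 ± 0.10 with siRNA 1 (SE, interval -0.72 to -0.26, limma adjusted p = 0.0394) and rose by 0.53 ± 0.10 with siRNA 2 (interval 0.30 to 0.75, limma adjusted p = 0.0232). In linear signal it fell by 28.8% with siRNA 1 and rose by 44.0% with siRNA 2. The siRNA 1 call was lost without each of the 6 arrays in turn (limma adjusted p between 0.0520 and 0.203), with no filter (0.198), with every row tested (0.102), with quantile normalization on top (0.0549) and with only the arrays compared (0.0520), and its lowest value was 0.00713. The siRNA 2 call was lost without siRNA 2 replicate 1 or 2 (limma adjusted p = 0.113 and 0.0535), without control replicate 1 or 2 (0.0503 and 0.103), with no filter (0.149) and with every row tested (0.0761), and its lowest value was 0.00301.

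OSGIN1, a growth inhibitor induced by oxidative stress, had 6.32 and 6.44 with siRNA 1 and 6.70 and 6.46 with siRNA 2, against 6.67 and 6.52 with the control siRNA. The siRNA 1 arrays were below the control arrays and siRNA 2 overlapped them, with log2 fold changes of -0.21 ± 0.10 and -0.014 ± 0.10 (SE, limma adjusted p = 0.329 and 0.957).

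**Figure D3:**
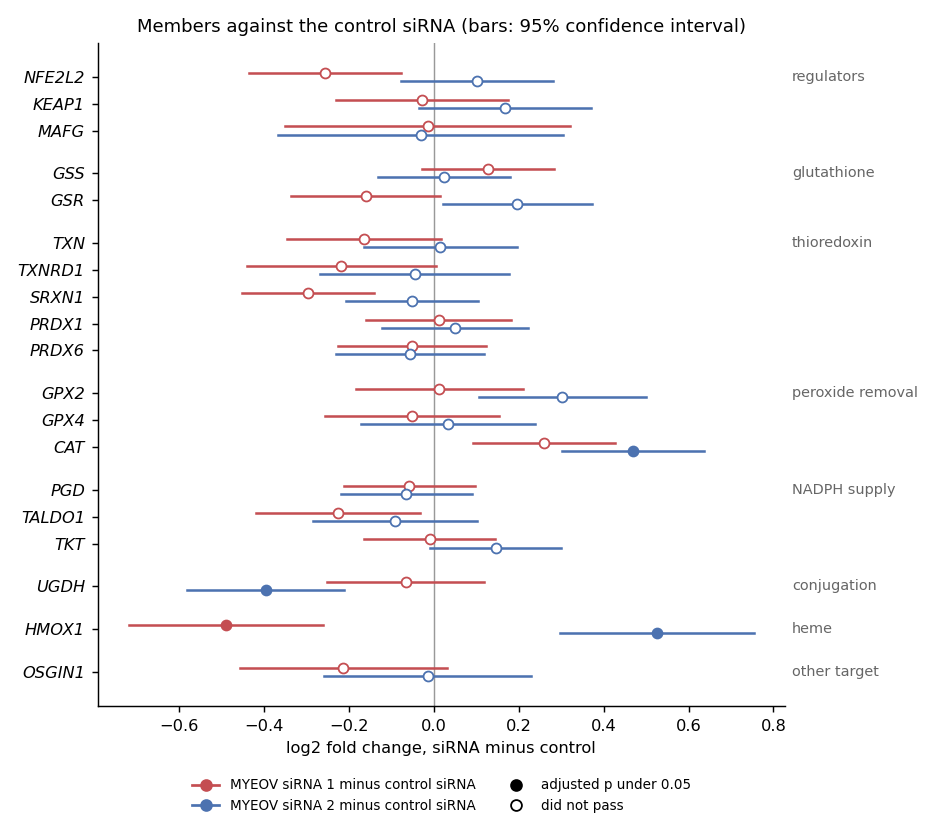
Log2 fold change (horizontal axis) of the 19 tested members with MYEOV siRNA 1 (red) and MYEOV siRNA 2 (blue) minus the control siRNA; points are limma estimates, bars their 95% confidence intervals, and filled points passed an adjusted p under 0.05. The filled points are HMOX1 with both siRNAs, at -0.49 and 0.53, and CAT and UGDH with siRNA 2, at 0.47 and -0.40.

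With siRNA 1, 15 of the 19 members had a log2 fold change below 0 and 4 above, where 50.8% of all tested genes were below 0 and 49.2% above. The median of the members was -0.057, against -0.0027 for all tested genes. Both siRNA 1 arrays lay below both control arrays for 9 members and above for 2, where each direction held 24.4% of all tested genes. With siRNA 2, 8 members were below 0 and 11 above, where 49.8% of all tested genes were below 0 and 50.2% above, and the medians were 0.025 for members and 0.0005 for all tested genes. Both siRNA 2 arrays lay above both control arrays for 7 members and below for 3, where 25.0% and 25.6% of all tested genes did so. Members read on the same arrays are not independent of each other, and a shift of the group was not tested.

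For the mean of both siRNAs against the control, limma called 1 of 19 members higher, CAT, and 0 lower, where 5.42% of all tested genes were called, 2.55% higher and 2.86% lower. Unadjusted, 3 members had a p under 0.05, against 20.4% of all tested genes, and 8 members lay above 0 and 11 below, against 47.8% and 52.2%. CAT rose by 0.36 ± 0.06 (SE, interval 0.22 to 0.51, limma adjusted p = 0.0202), and it was higher in 4 of 4 siRNA arrays than in both control arrays. The call was lost without each of the 6 arrays in turn (limma adjusted p between 0.0518 and 0.116), with no filter (0.157) and with every row tested (0.0603), and its lowest value was 0.00358. HMOX1 had 0.018 for the mean, its changes cancelling, and SRXN1 and UGDH had -0.17 and -0.23 (limma adjusted p = 0.146 and 0.113).

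The siRNAs were then set directly against each other. The log2 difference uses no control array, but its SE, interval and p-value do, because all groups were fitted together with a shared estimate of spread. Both siRNAs were designed against the same gene and lowered it, so this comparison asks which members respond differently to them. HMOX1, GSR and NFE2L2 were lower with siRNA 1 than with siRNA 2, and UGDH was higher. Limma with Benjamini-Hochberg adjustment called 4 of 19 members, 1 higher and 3 lower with siRNA 1, where 9.15% of all tested genes were called, 5.37% higher and 3.78% lower. Unadjusted, 8 members had a p under 0.05, against 23.6% of all tested genes. Counts this small are not a result about the members as a group.

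HMOX1 had a log2 difference of -1.02 ± 0.10 for siRNA 1 minus siRNA 2 (SE, interval -1.24 to -0.79, limma adjusted p = 0.00121), so its linear signal with siRNA 1 fell by 50.5% relative to siRNA 2. The call held without each array in turn (limma adjusted p between 0.00351 and 0.0159) and under every other alternative tried, and over all of them it ran from 4.41e-05 to 0.0173. NFE2L2 had -0.36 ± 0.08 (SE, interval -0.54 to -0.18, limma adjusted p = 0.0303) and GSR -0.36 ± 0.07 (interval -0.53 to -0.18, adjusted p = 0.0288). In both genes the siRNA 1 arrays lay below and the siRNA 2 arrays above the control arrays. The NFE2L2 call was lost without each of the 6 arrays in turn (limma adjusted p between 0.0509 and 0.163), with no filter (0.168), with every row tested (0.0813) and with only the arrays compared (0.0509). The GSR call was lost without siRNA 1 replicate 1 or 2 (limma adjusted p = 0.151 and 0.106), without siRNA 2 replicate 1 or 2 (0.145 and 0.0893), with no filter (0.164) and with every row tested (0.0782). The lowest adjusted p over the alternatives was 0.00768 for NFE2L2 and 0.00297 for GSR.

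UGDH had 0.33 ± 0.08 (SE, interval 0.14 to 0.51, limma adjusted p = 0.0455) and was the single member called in that direction. Its call was lost without each of the 6 arrays in turn (limma adjusted p between 0.0539 and 0.203), with no filter (0.211), with every row tested (0.107) and with only the arrays compared (0.0539), and its lowest value was 0.00534.

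Members that did not pass lay mostly on the same side. SRXN1 had -0.25 ± 0.07 (SE, limma adjusted p = 0.0648), GPX2 -0.29 ± 0.08 (adjusted p = 0.0809) and CAT -0.21 ± 0.07 (adjusted p = 0.123). Over the 19 members, 14 were below 0 and 5 above, where 50.1% of all tested genes were below 0 and 49.9% above, and the median was -0.17 against -0.0005 for all tested genes. Both siRNA 1 arrays lay below both siRNA 2 arrays for 13 members and above for 2, where 27.5% and 27.1% of all tested genes did so. The members share the same arrays and are not independent of each other. A shift of the members as a group was not tested. GSS, MAFG, PRDX6 and PGD were, with UGDH, the members above 0, and of these 4 the highest was GSS, at 0.10 (interval -0.052 to 0.26, limma adjusted p = 0.412).

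**Figure D4:**
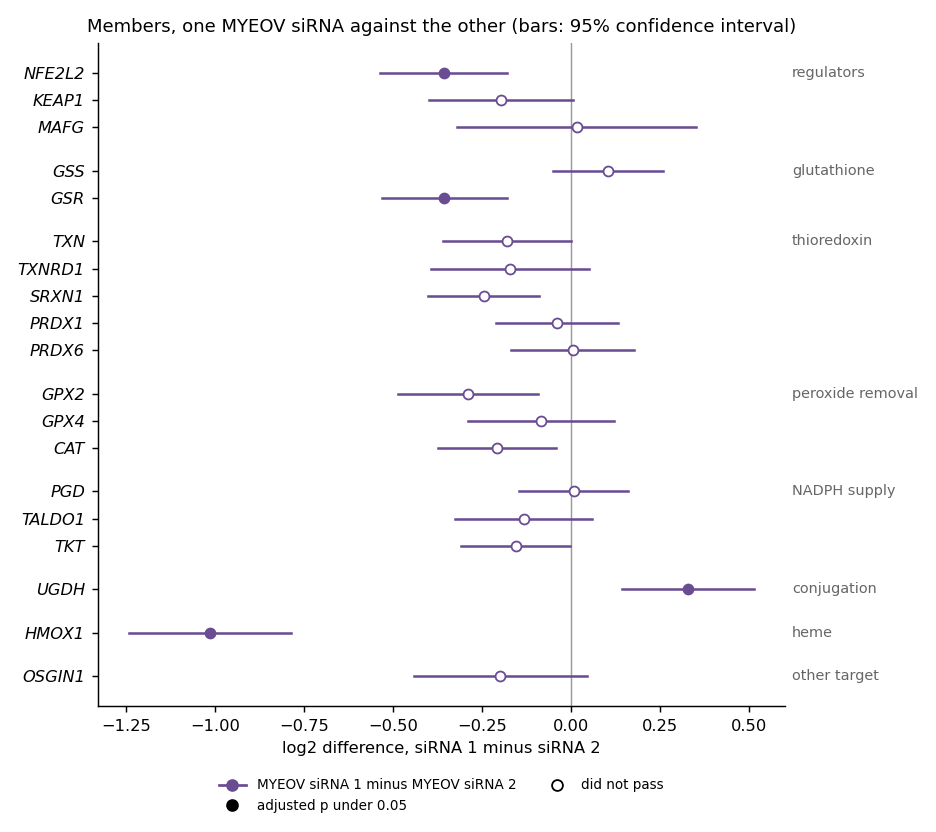
Log2 difference (horizontal axis) of the 19 tested members, MYEOV siRNA 1 minus MYEOV siRNA 2; points are limma estimates, bars their 95% confidence intervals, and filled points passed an adjusted p under 0.05. HMOX1 lies at -1.02, NFE2L2 and GSR at -0.36, and UGDH, the filled point on the other side, at 0.33.

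Wider lists of the same pathways held 114 further genes, of which 75 had a named row and 64 were tested. With siRNA 1, 1 was called higher and 0 lower, with siRNA 2, 0 higher and 2 lower, for the mean of both, 0 higher and 1 lower, and for siRNA 1 against siRNA 2, 3 higher and 0 lower. Over all tested genes 4.66%, 6.83%, 5.42% and 9.15% were called in these 4 comparisons. For siRNA 1, siRNA 2 and the siRNAs against each other, the median log2 values of the lists were -0.018, 0.0041 and 0.014, against -0.0027, 0.0005 and -0.0005 for all tested genes. None of the 14 other regulators was called in any comparison. Of these, NFE2L1, an NRF2 relative that drives proteasome genes, had 0.21 and 0.15 with siRNA 1 and siRNA 2, and MAFF, another small MAF, had 0.19 and 0.025. The coactivator EP300 had -0.087 and -0.082, and COPS5, a signalosome subunit that acts on cullin ligases, had -0.10 and -0.060.

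Among 14 other glutathione genes, GLO1 was called between the siRNAs, where 9.15% of all tested genes were called. GLO1, glyoxalase, uses glutathione to remove methylglyoxal, and had 9.50 and 9.60 with siRNA 1 and 9.05 and 9.11 with siRNA 2, against 9.20 and 9.45 with the control siRNA. Control arrays lay between those of siRNA 1, which were above, and those of siRNA 2, which were below, and the log2 difference between the siRNAs was 0.47 ± 0.10 (SE, limma adjusted p = 0.0277). The call was lost without siRNA 1 replicate 1 or 2 (limma adjusted p = 0.0903 and 0.149), without siRNA 2 replicate 1 or 2 (0.128 and 0.0881), with no filter (0.148) and with every row tested (0.0816), and its lowest value was 0.00624. GPX8, a peroxidase of the endoplasmic reticulum, and GSTM4, a glutathione transferase, had 0.35 and 0.31 with siRNA 1 and 0.082 and 0.036 with siRNA 2. GPX1, the cytosolic peroxidase, had -0.068 and -0.20, and ESD, which completes glutathione-dependent formaldehyde removal, had -0.024 and -0.18.

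Of 18 other thioredoxin genes, 0 were called in any comparison by limma with Benjamini-Hochberg adjustment, and 5, 3 and 4 had an unadjusted p under 0.05 for siRNA 1, siRNA 2 and the siRNAs against each other, where 19.2%, 22.2% and 23.6% of all tested genes did. TXN2, the mitochondrial thioredoxin, had 7.88 and 7.94 with siRNA 1 and 7.91 and 8.04 with siRNA 2, against 7.73 and 7.62 with the control. All 4 siRNA arrays were above both control arrays, and the log2 fold changes were 0.24 and 0.30 (limma adjusted p = 0.161 and 0.0761). The methionine sulfoxide reductase MSRB2 had 0.24 and 0.18, and the glutaredoxins GLRX5 and GLRX3, which take part in iron-sulfur cluster assembly, had -0.075 and -0.25 with siRNA 1 and -0.29 and -0.080 with siRNA 2.

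Of 6 other NADPH genes, 2 fell with siRNA 2, where 4.23% of all tested genes were called lower. With 6 genes, such a count is not a result about the group. RPIA, ribose-5-phosphate isomerase of the pentose phosphate pathway, had 7.54 and 7.45 with siRNA 1 and 7.29 and 7.28 with siRNA 2, against 7.71 and 7.79 with the control siRNA. All 4 siRNA arrays were below both control arrays. It fell by 0.46 ± 0.07 with siRNA 2 (SE, limma adjusted p = 0.0124) and fell by 0.36 ± 0.06 for the mean of both (adjusted p = 0.0224), and had -0.25 with siRNA 1 (adjusted p = 0.112). The siRNA 2 call was lost without siRNA 2 replicate 1 or 2 (limma adjusted p = 0.0645 and 0.0749), without control replicate 2 (0.0671) and with no filter (0.106), and its lowest value was 0.00189. The call for the mean was lost without each of the 6 arrays in turn (limma adjusted p between 0.0538 and 0.129), with no filter (0.166) and with every row tested (0.0656), and its lowest value was 0.00420.

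NADK2, the mitochondrial kinase that makes NADP from NAD, had 8.05 and 7.94 with siRNA 1 and 7.54 and 7.54 with siRNA 2, against 7.96 and 7.99 with the control siRNA. The siRNA 2 arrays stood apart below the others. It fell by 0.44 ± 0.07 with siRNA 2 (SE, limma adjusted p = 0.0138) and differed by 0.45 ± 0.07 between siRNA 1 and siRNA 2 (adjusted p = 0.00964). The fall was lost without siRNA 2 replicate 1 or 2 (limma adjusted p = 0.0741 and 0.0791), without control replicate 1 or 2 (0.0649 and 0.0711) and with no filter (0.120), and its lowest value was 0.00221. The difference between the siRNAs was lost without siRNA 1 replicate 1 (limma adjusted p = 0.0704), without siRNA 2 replicate 1 or 2 (0.0557 and 0.0555) and with no filter (0.0804), and its lowest value was 0.00156. NADK, the cytosolic kinase for the same reaction, had 0.12 and 0.10 with siRNA 1 and siRNA 2, and PGLS, the lactonase ahead of PGD, had 0.098 and 0.043.

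Of 12 other detoxification and heme genes, ARL6IP5, known from rodents to restrain a glutamate and cysteine transporter, rose with siRNA 1. Over all tested genes, 2.28% were called higher with siRNA 1. ARL6IP5 had 10.95 and 10.89 with siRNA 1 and 10.53 and 10.60 with siRNA 2, against 10.62 and 10.54 with the control siRNA. The siRNA 1 arrays lay above the other 4, with a rise by 0.35 ± 0.07 against control (SE, limma adjusted p = 0.0445) and a difference of 0.36 ± 0.07 from siRNA 2 (adjusted p = 0.0245). The rise was lost without each of the 6 arrays in turn (limma adjusted p between 0.0743 and 0.209), with no filter (0.226), with every row tested (0.102) and with only the arrays compared (0.0743), and its lowest value was 0.00589. The difference was lost without siRNA 1 replicate 1 or 2 (limma adjusted p = 0.137 and 0.0965), without siRNA 2 replicate 1 or 2 (0.132 and 0.0806), with no filter (0.152) and with every row tested (0.0683), and its lowest value was 0.00262. BLVRA, biliverdin reductase, which acts on the product of HMOX1, had 0.17 and 0.076 with siRNA 1 and siRNA 2, while TRIM16 had -0.13 and -0.11 and the carbonyl reductase CBR3 -0.16 and -0.042.

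**Figure D5:**
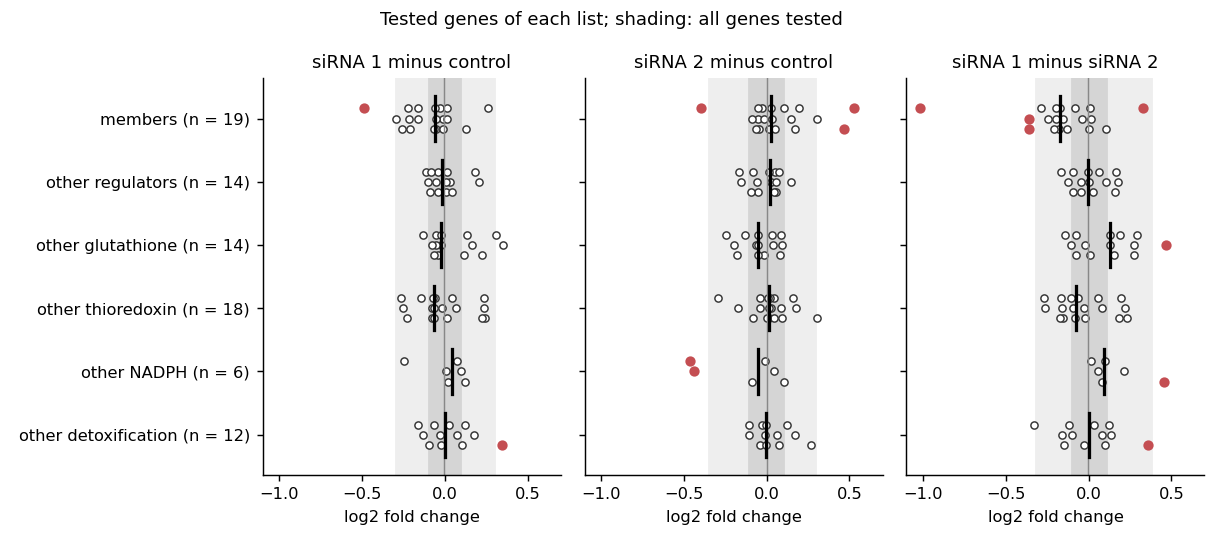
Log2 fold change (horizontal axes) of the tested members and of the tested genes of 5 wider lists, for siRNA 1 minus control, siRNA 2 minus control and siRNA 1 minus siRNA 2; each point is a gene, filled where it passed an adjusted p under 0.05, short black bars are list medians, and shading spans the 25th to 75th and the 5th to 95th percentile of all 7442 tested genes. The members' median is -0.17 in the right panel, against -0.0005 for all tested genes.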

How the data were processed

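RNA of A549 cells was measured on 6 Affymetrix whole-transcript arrays, 2 per group. The deposited values are log2 signals made by the authors with RMA, per the submitters' processing notes; its version and the genome build are not stated there. RMA equalises arrays and compresses differences of dim transcripts. The precision is limited by the number of arrays.

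Of 53617 rows, 16098 carried 1 gene symbol, 0 several and 37519 none, which are unnamed here; all 16098 gene identifiers were found in RefSeq GRCh38.p14. They stand for 14884 genes, and for the 779 with several rows the brightest was used. Genes with a mean of at least 5.45 went into limma 3.58.1 (R 4.3.3; lmFit, then eBayes) with all 6 arrays in 3 groups, with 3 residual and 4.09 prior degrees of freedom. Calls needed an adjusted p under 0.05 (Benjamini-Hochberg, 7442 genes), with no adjustment over the list. The fit was also run on simulated arrays with independent errors and planted changes for each siRNA against the control. The simulation did not cover the mean of both siRNAs or the siRNAs against each other. It also left out the correlation of same-numbered arrays given below.

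Members, lists and tests were chosen with earlier results of these data known. Any member could be named, and of the wider lists each called gene and the 2 largest mean changes per direction. Promoter windows are from RefSeq. The alternatives were no filter or one at the 75th percentile, every row tested, averaged rows, quantile or median scaling, only the arrays compared, the replicate block, a trend and robust prior, array weights, and each array left out.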

Additional observations from a re-analysis of the deposited data

Results flagged for a closer look

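All 7 values below were flagged because the effects of the siRNAs differed from each other in a direct test, siRNA 1 minus siRNA 2, by limma with Benjamini-Hochberg adjustment over all tested genes. HMOX1 differed by -1.02 on the log2 scale, with siRNA 1 below and siRNA 2 above the control. NFE2L2 differed by -0.36 and GSR also by -0.36, and UGDH differed by 0.33. In the wider lists, GLO1 differed by 0.47, NADK2 by 0.45 and ARL6IP5 by 0.36. The cause was not tested. With 2 arrays per group, no array could be examined for standing apart within its group.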

How the results depend on the processing

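Of the calls of named genes, the difference of HMOX1 between the siRNAs held under all 16 alternatives and the fall of MYEOV with siRNA 2 under the 15 that tested it (MYEOV is below the 75th percentile filter), while each other call was lost under at least 1. For a comparison of 2 groups, leaving out an array of the group outside it gave the same values as using only the arrays compared. Those alternatives are therefore not separate checks. No called value changed its direction under any alternative, and the cause of the losses was not tested beyond the construction of each alternative: without a filter all 14884 named genes enter the adjustment, and leaving out an array removes a degree of freedom and assumes that a lone array varies like the other groups. With siRNA 1 against control, 1 member was called; there were 0 with no filter, with every row tested, with quantile normalization and with only the arrays compared, 2 with the replicate block (HMOX1 and SRXN1), 3 with the trend and robust prior (HMOX1, SRXN1 and CAT), 4 with the 75th percentile filter (HMOX1, NFE2L2, SRXN1 and CAT), and 0 without each array. With siRNA 2, 3 members became 0 with no filter, 1 with every row tested (CAT), 4 with the trend and robust prior or the 75th percentile filter (GPX2 added) and 0 to 2 without an array. For the mean, 1 became 0 with no filter and with every row tested, 2 with the 75th percentile filter (CAT and UGDH), 3 with the trend and robust prior (CAT, SRXN1 and UGDH) and 0 without each array. Between the siRNAs, 4 became 1 with no filter and with every row tested (HMOX1), 2 with only the arrays compared (HMOX1 and GSR), 6 with the 75th percentile filter (also SRXN1 and GPX2), 7 with the trend and robust prior (also SRXN1, GPX2 and TKT) and 1 to 2 without an array. Over all genes, 347 called with siRNA 1 became 39 with no filter, 187 with every row tested and 58 to 235 without an array. With siRNA 2, 508 became 139 with no filter, 331 with only the arrays compared and 207 to 331 without an array. For the mean, 403 became 26 with no filter, 255 with every row tested and 68 to 239 without an array. Between the siRNAs, 681 became 195 with no filter and 226 to 618 without an array.

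The replicate numbers are not stated to pair the arrays. Deviations of same-numbered arrays from their group means correlated across genes at 0.25 between siRNA 1 and siRNA 2, 0.27 between siRNA 1 and control and 0.20 between siRNA 2 and control. With the replicate block, limma called 420 genes with siRNA 1, 702 with siRNA 2, 531 for the mean and 922 between the siRNAs, and of members 2, 3, 1 and 4, SRXN1 with siRNA 1 being the added member (limma adjusted p = 0.0488). In the same order, the 75th percentile filter called 425, 574, 482 and 684 of 3721 genes, with 17 members tested. The trend and robust prior called 501, 695, 581 and 869 of 7442 genes. More members called under these settings thus came with more genes called over all. For the mean, all 6 arrays are the arrays compared, so that alternative has no value of its own.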
